A study of Mus musculus with 8 samples.

Results

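The myosin light chains and the cardiac light-chain kinase were followed in whole hearts of mouse embryos (Mus musculus) at E18.5. The set holds 9 genes of the 49315 in the count files, found there by symbol: Myl1, Myl2, Myl3, Myl4, Myl6, Myl7, Myl9, Mylpf and Mylk3. The mutant hearts (Mut, n = 4 libraries) were CHD4 M195I/M195I, that is, homozygous for a change of 1 amino acid in CHD4. They were set against wild-type hearts (WT, n = 4 libraries), and n counts libraries throughout. CHD4 is the ATPase of the nucleosome remodelling and deacetylase complex. Every heart was taken at E18.5 and no treatment is labelled; the strain, the litter and the number of hearts per library are not given in the labels. The column headers of the library files begin with "Male". Since no label says that the hearts of a genotype came from separate litters, the p-values measure the spread between these libraries only.

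Myosin of striated muscle carries 2 kinds of light chain on the lever arm of each heavy chain. The essential chains stiffen the lever and bear on the speed and force of the stroke, and the regulatory chains sit next to the rod and can be phosphorylated by a light-chain kinase, which raises force at a given calcium level. Ventricular myosin uses Myl3 as its essential and Myl2 as its regulatory chain, and atrial myosin uses Myl4 and Myl7. Myl1 and Mylpf are the essential and regulatory chains of fast skeletal muscle, Myl9 is the regulatory chain of smooth muscle, and Myl6 is the essential chain of smooth muscle and non-muscle myosin. Mylk3 is the kinase that phosphorylates the ventricular regulatory chain in cardiomyocytes.

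All 9 genes passed the filter on low counts, and 4 of them fell in the Mut hearts: Myl9, Myl1, Myl3 and Myl6. Across the transcriptome 7.49% of 16372 tested genes were called lower and 5.75% higher, 13.2% in all, at a Benjamini-Hochberg adjusted p under 0.05 in the quasi-likelihood test of edgeR. The ventricular regulatory chain Myl2, the atrial chains Myl7 and Myl4, the skeletal chain Mylpf and the kinase Mylk3 were not called. No member was called higher; this count was also 0 at an unadjusted p under 0.05, with DESeq2 and with limma-voom. Of the 9 fold changes, 8 were negative, with a median of -0.11 on the log2 scale, where 8187 of the 16372 tested genes were negative. In bulk tissue, fewer cells of a type and less RNA per cell cannot be told apart.

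Promoter sequences are shown for the members with a CArG box, the binding motif of serum response factor, in the 250 bases before a start site in RefSeq (GRCm38.p6). This factor drives many contractile genes. The box was found for Myl9, Myl3 and Myl6, which fell, and for Myl7, which was not called, but not for Myl1, which fell. Its part in the levels was not tested. The box is a run of A and T bases between CC and GG and stands in capitals, with the rest in lower case, 5′ to 3′. Bases that the count files place in an exon of the member are left off.
Myl9 (chr2:156775214-156775419, plus strand): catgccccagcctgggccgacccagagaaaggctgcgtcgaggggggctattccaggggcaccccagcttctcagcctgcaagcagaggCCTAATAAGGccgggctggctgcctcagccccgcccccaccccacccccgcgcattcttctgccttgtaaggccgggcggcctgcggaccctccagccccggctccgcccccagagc
Myl3 (chr9:110763428-110763645, plus strand): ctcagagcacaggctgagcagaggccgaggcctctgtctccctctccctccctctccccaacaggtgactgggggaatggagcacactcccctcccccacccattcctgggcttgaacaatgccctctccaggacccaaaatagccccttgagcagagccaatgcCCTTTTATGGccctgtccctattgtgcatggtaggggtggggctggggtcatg
Myl6 (chr10:128493010-128493259, minus strand): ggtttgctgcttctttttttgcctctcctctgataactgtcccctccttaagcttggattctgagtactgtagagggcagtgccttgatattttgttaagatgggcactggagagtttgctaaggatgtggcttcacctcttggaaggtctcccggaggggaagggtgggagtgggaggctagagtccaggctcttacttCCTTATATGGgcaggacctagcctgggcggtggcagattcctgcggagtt
Myl7 (chr11:5898783-5899032, minus strand): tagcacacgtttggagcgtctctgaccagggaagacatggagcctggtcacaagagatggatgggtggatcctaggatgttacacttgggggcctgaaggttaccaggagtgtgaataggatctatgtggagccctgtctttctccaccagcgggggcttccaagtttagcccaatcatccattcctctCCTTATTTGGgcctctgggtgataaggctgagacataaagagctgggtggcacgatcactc

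The RefSeq table has 12 windows for the 9 members, and 4 of them hold a CArG box on either strand. Of all 32851 windows of this length, 1.47% hold 1. The box lies 161 to 152 bases before the start of Myl9, 85 to 76 before that of Myl3, 50 to 41 before that of Myl6 and 61 to 52 before that of Myl7. The Myl6 window precedes a start site inside the gene, and the other Myl6 window holds no box. A MEF2 site was found in 0 of the 12 windows and in 2.92% of all windows. Both RefSeq start sites of Myl2 lie outside the span counted as Myl2. Its windows are among the 12, so the counts do not show whether the sequence before the counted span of Myl2 holds either motif. A match of letters is a description of the sequence and shows no binding.

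The 8 libraries held between 18375951 and 21341235 counts, and the 9 members took 0.941 ± 0.034% of them in Mut hearts and 0.991 ± 0.040% in WT hearts (SD, n = 4 each). Chd4 itself was at 482 ± 8.48 CPM in Mut and 452 ± 6.37 CPM in WT hearts (adjusted p = 0.094, edgeR). It was called higher by DESeq2 (log2 fold change 0.096, adjusted p = 0.0050) and by edgeR with library totals (0.145, adjusted p = 0.0063). Its level is no check of genotype, since counts do not show the mutated base. Airway RNA differed between libraries: Scgb3a2, a secretoglobin of airway epithelium, was at 284 and 498 CPM of the library total in Mut replicates 3 and 4 and at 176 to 436 in WT replicates 1, 3 and 4, but at most 6.48 in Mut replicates 1 and 2 and WT replicate 2. Erythroid genes differed too: the summed level of 10 was 1254 to 1974 CPM in Mut and 2035 to 3894 CPM in WT libraries, with a median fold change of -0.74 over the 8 tested, of which edgeR called 0, while 4 were lower at an unadjusted p under 0.05 and 4 were called lower by DESeq2 and by limma-voom. With an airway score as a covariate, the same 4 members were called lower: Myl9 (-0.39, adjusted p = 1.5e-06), Myl3 (-0.22, adjusted p = 0.00078), Myl6 (-0.19, adjusted p = 0.00090) and Myl1 (-0.32, adjusted p = 0.035). The libraries without airway RNA hold WT replicate 2 as their 1 WT library, so fold changes within them are given as values with no test. The part of blood in the levels of the members was not tested. Xist was at 1.53 to 1.92 CPM in Mut and 1.28 to 1.58 CPM in WT libraries. With Xist as a covariate, Myl9 was the 1 member still called, and 138 genes were called higher and 183 lower. Of the WT libraries only WT replicate 1 reached the Mut range of Xist, so this fit can hardly tell Xist from genotype. The standard error of Myl3 was 0.081 in it, against 0.047 in the main fit. Levels below are CPM scaled by TMM, that is, counts relative to the scaled size of the library, fold changes are log2 of Mut over WT with their standard error, and adjusted p-values come from edgeR over all tested genes.

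**Figure D1:**
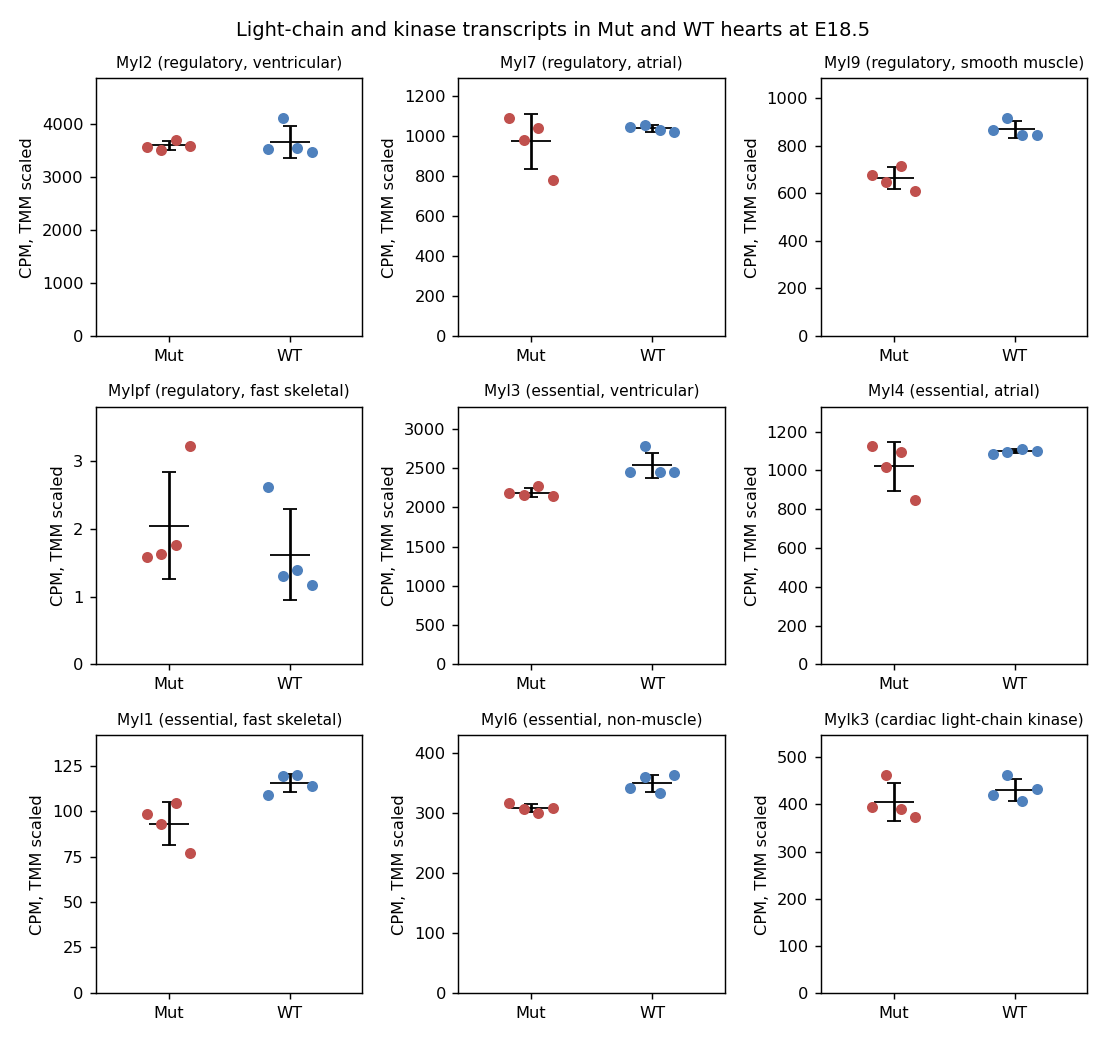
Level of the 9 members in each library, in CPM scaled by TMM; points are libraries in the order of their replicate numbers, the long bar is the mean and the whiskers are 1 SD (n = 4 per genotype). For Myl9, Myl3, Myl1 and Myl6 the 4 Mut points lie below the 4 WT points, and for the other 5 genes the genotypes overlap.

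Myl9 (chromosome 2, 156775420 to 156781658, GRCm38), the smooth muscle regulatory chain, fell most among the called members. Its 4 Mut libraries had 679.8, 650.2, 717 and 612 CPM, against 867, 919, 845 and 847 CPM in the 4 WT libraries. Every Mut library lay below every WT library, as was so for 4 of the 9 members and for 9.77% of all tested genes; the opposite order held for 0 members and 8.8% of genes, and either order for 4 members and 18.6% of genes. The fold change was -0.39 ± 0.05 (adjusted p = 0.00014). Myl9 was called under each of the 20 alternatives other than the fit with WT replicate 2 as the lone WT library, which is not counted. Over the 20, the fold change ran from -0.46, in that fit, to -0.33. Within the 5 libraries with airway RNA it was -0.36 (adjusted p = 0.0022), and Mut replicates 1 and 2 against WT replicate 2, the highest WT library for Myl9, differed by -0.46.

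Some genes listed for smooth muscle were lower too. Of 15 listed genes, all tested, 4 fell (7.49% of all tested genes did). These were the intermediate filament Des (-0.36 ± 0.05), Tpm2, a tropomyosin (-0.29 ± 0.04), the smooth muscle actin Acta2 (-0.23 ± 0.05), which is also made by fetal cardiomyocytes, and Smtn, smoothelin (-0.23 ± 0.04). Bulk counts do not show which cells made these 4 transcripts. The median fold change of the 15 genes was -0.24, against 0 for all tested genes. Several genes typical of smooth muscle were not called: the actin Actg2, with the lowest fold change of the list, was at -0.71 ± 0.27 (adjusted p = 0.15, but called by DESeq2 at 0.0074), the heavy chain Myh11 at -0.28 ± 0.39 (adjusted p = 0.73), Tagln at -0.33 ± 0.18 (adjusted p = 0.32), and Cnn1, calponin, at 0.15 ± 0.10 (adjusted p = 0.43). The summed level of the list was 2132 to 2351 CPM in Mut and 2588 to 2742 CPM in WT libraries, without overlap. Most of it came from Des (mean 751 CPM in Mut, 968 in WT) and Acta2 (748 in Mut, 877 in WT), so it says little of the other genes. Of 6 pericyte markers, Cspg4 fell (-0.33 ± 0.04, adjusted p = 0.00013), and the summed level overlapped, with 774 to 817 CPM in Mut and 803 to 942 CPM in WT libraries. The part of these cells in the level of Myl9 was not tested.

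The second member of that type, Myl6 (chromosome 10, 128490860 to 128493875), had 317, 306, 301 and 309 CPM in the Mut libraries and 342, 359.7, 334 and 364 CPM in the WT libraries. The genotypes did not overlap, although the gap between the highest Mut and the lowest WT library was small. The fold change was -0.18 ± 0.04 (adjusted p = 0.0058). Within the libraries with airway RNA it was -0.19 (adjusted p = 0.011), and Mut replicates 1 and 2 against WT replicate 2 differed by -0.20. Of the 50-base windows of the Myl6 transcript, 53.2% also occur in 1 of 5 other annotated genes, most in Gm5526, so reads could be lost to these copies, and the level of Myl6 is uncertain. The 5 copies together held 485 counts over the 8 libraries.

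Other light chains of non-muscle myosin were read beside these. Myl12a, a regulatory chain of non-muscle myosin, fell to 313 ± 2.91 CPM in Mut hearts, against 377.5 ± 21.3 CPM in WT hearts (-0.27 ± 0.04, adjusted p = 0.00060). Its close relative Myl12b did not pass (-0.02 ± 0.05, adjusted p = 0.90), nor did Myl6b, an essential chain (0.22 ± 0.14, adjusted p = 0.36). Myl10 had no count in any library, which allows at most 3 counts per library, and was not tested. So 1 of 3 tested genes fell, where 7.49% of all tested genes did.

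**Figure D2:**
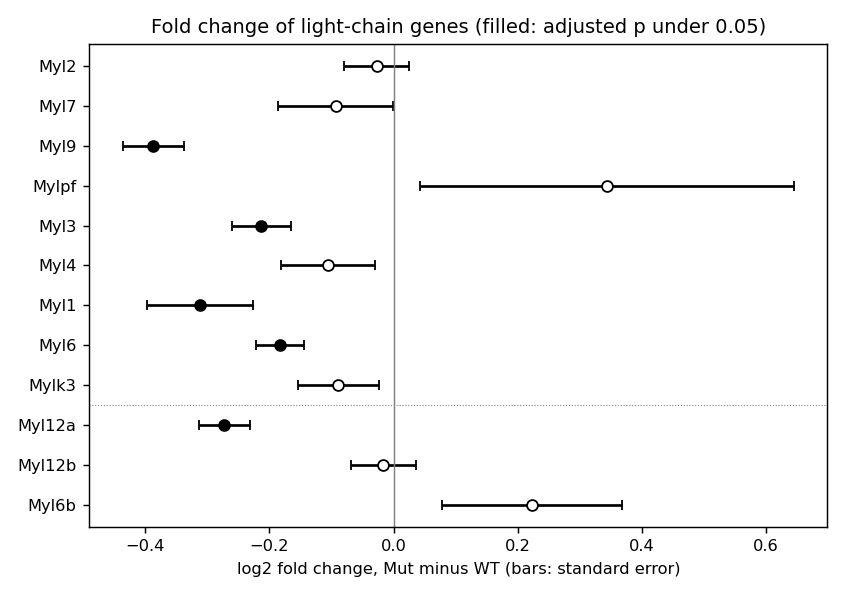
Log2 fold change (Mut minus WT, x axis) of the 9 members and, below the dotted line, of 3 other light-chain genes; bars are the standard error of the edgeR fit and filled points passed an adjusted p of 0.05. Myl9, Myl1, Myl3, Myl6 and Myl12a lie below 0 with filled points, and Mylpf and Myl6b lie above 0 with wide bars and open points.

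Of the ventricular pair, Myl3 fell and Myl2 was not called. Myl3 (chromosome 9, 110741861 to 110769798), the ventricular essential chain, had 2188, 2158, 2268 and 2140.0 CPM in the Mut libraries, against 2458, 2780.3, 2457 and 2449 CPM in the WT libraries. No Mut library reached the lowest WT library, and WT replicate 2 stood above the other WT libraries. The fold change was -0.21 ± 0.05 (adjusted p = 0.0077), and it lay between -0.23 and -0.17 with any 1 library left out, called in all 8 of these fits. Within the libraries with airway RNA it was -0.16 (adjusted p = 0.032), and Mut replicates 1 and 2 against WT replicate 2 alone, the library that stood above the other WT libraries, differed by -0.35.

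Myl2 (chromosome 5, 122100951 to 122113472), the ventricular regulatory chain and the most abundant member, had 3576, 3518, 3711 and 3596 CPM in the Mut libraries and 3536.5, 4124, 3548 and 3468 CPM in the WT libraries. The genotypes overlapped, and WT replicate 2 was again the highest. Its fold change was -0.03 ± 0.05 (adjusted p = 0.81), and its sign turned with library totals in place of TMM (0.03), within the libraries with airway RNA (0.05) and without WT replicate 2 (0.03), while Mut replicates 1 and 2 against WT replicate 2 alone differed by -0.21. The exons of Myl2 share 60 bases with Ccdc63 and those of Myl3 share 95 bases with Pth1r, both on the other strand. These neighbours held 614 and 3591 counts over the 8 libraries, against 571989 for Myl2 and 371000 for Myl3.

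The ratio of Myl3 to Myl2 within a library does not depend on how libraries are scaled. On the log2 scale and per length of transcript it was -1.21, -1.21, -1.21 and -1.25 in the Mut libraries and -1.03, -1.07, -1.03 and -1.003 in the WT libraries. The 2 genotypes lay apart, by -0.19, or 0.878 times the WT ratio. The exact permutation test gave a two-sided p = 0.029, the smallest that 70 splits allow, and an adjusted p = 0.17 over the 6 ratios compared, which did not pass. Within the libraries with airway RNA the difference was -0.21, and Mut replicates 1 and 2 against WT replicate 2 alone differed by -0.14.

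Other genes of ventricular cardiomyocytes were not called. Of 10 genes, all tested, 0 were called by edgeR, although 3 were higher and 2 lower at an unadjusted p under 0.05, DESeq2 called 2 higher and 2 lower, and limma-voom called 0. Their median fold change was 0.04. The transcription factor Irx4 was at 0.15 ± 0.05 (adjusted p = 0.0501) and the phosphoprotein Pln, an inhibitor of the calcium pump, at -0.07 ± 0.05 (adjusted p = 0.42). Among 10 genes of all cardiomyocytes, 5 fell (7.49% of all tested genes did), with a median of -0.17. They were the cardiac actin Actc1 (-0.44 ± 0.06), the muscle LIM protein Csrp3 (-0.42 ± 0.06), the Z-disc protein Actn2 (-0.28 ± 0.04), the troponin Tnnc1 (-0.27 ± 0.05) and the tropomyosin Tpm1 (-0.20 ± 0.05), whose call was lost within the libraries with airway RNA. The troponin Tnnt2 was at -0.04 ± 0.05 (adjusted p = 0.71), close to Myl2.

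The atrial pair was not called. Myl7 (chromosome 11, 5896637 to 5898782), the atrial regulatory chain, had 1090.0, 980.4, 1038 and 779.5 CPM in the Mut libraries and 1046, 1055, 1027.5 and 1018 CPM in the WT libraries. The low value of Mut replicate 4 set the Mut spread, at 136 CPM (SD), against 16.7 CPM in WT. Its fold change was -0.09 ± 0.09 (adjusted p = 0.60), and 0.00 without Mut replicate 4 (adjusted p = 0.98).

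Myl4 (chromosome 11, 104550663 to 104595753), the atrial and embryonic essential chain, had 1124, 1016.5, 1096 and 846 CPM in the Mut libraries and 1085, 1096, 1111 and 1100.2 CPM in the WT libraries. Here too Mut replicate 4 was the lowest and the genotypes overlapped. The fold change was -0.11 ± 0.08 (adjusted p = 0.43), and -0.02 without that library. The WT libraries were closely matched, with an SD of 10.6 CPM.

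Both atrial genes varied together across libraries: the log2 ratio of Myl4 to Myl7 stayed between -0.53 and -0.46 over the 8 libraries and differed by -0.01 between the genotypes (exact permutation test, two-sided p = 0.69). The atrial-to-ventricular ratio of the regulatory chains, Myl7 over Myl2, averaged -1.73 ± 0.21 in Mut and -1.65 ± 0.10 in WT (SD, n = 4 each), a difference of -0.08 (exact two-sided p = 0.57). That of the essential chains, Myl4 over Myl3, averaged -1.02 ± 0.16 in Mut and -1.11 ± 0.09 in WT, a difference of 0.10 (exact two-sided p = 0.29). Without Mut replicate 4 the first of these differences was 0.02 and the second 0.17.

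The summed level of 13 atrial markers, most of it from Pam and Nppa, was lowest in Mut replicate 4, at 4484 CPM, against 5104 to 5619 CPM in the other Mut libraries and 5009 to 5811 CPM in WT libraries. Mut replicate 4 was also the library with the most airway RNA, at 908 CPM over 13 genes of airway and lung epithelium. Over the atrial list, edgeR called 1 gene higher and 2 lower, with a median of 0.03, while DESeq2 and limma-voom each called 3 higher and 2 lower, and edgeR with library totals 4 higher and 1 lower. By the first of these, the transcription factor Nr2f2 rose (0.27 ± 0.05, adjusted p = 0.0013), the growth factor Bmp10 fell (-0.94 ± 0.17, adjusted p = 0.017), and Dkk3 fell (-0.24 ± 0.06, adjusted p = 0.027). The call of Dkk3 was lost without Mut replicate 2, 3 or 4 or WT replicate 1, 2 or 4 (adjusted p from 0.053 to 0.10). That of Bmp10 was lost within the libraries with airway RNA. The amount of atrial tissue in each library was not tested.

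**Figure D3:**
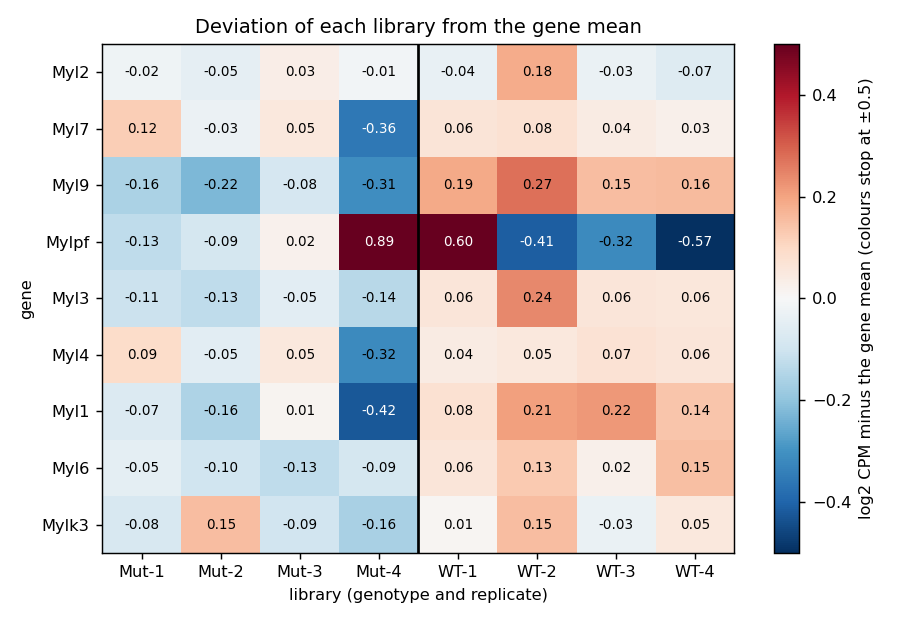
Log2 CPM of each member (rows) in each library (columns, Mut left of the line and WT right of it) minus the mean of the gene over the 8 libraries. Mut replicate 4 is lowest for Myl7 (-0.36), Myl4 (-0.32) and Myl1 (-0.42) and highest for Mylpf (0.89), and WT replicate 2 is highest for Myl2 (0.18) and Myl3 (0.24).

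Transcripts of the skeletal chains were scarcer. Myl1 (chromosome 1, 66924295 to 66945404), the fast skeletal essential chain, had 98.6, 92.8, 104 and 77.0 CPM in the Mut libraries and 109, 119, 120.1 and 114 CPM in the WT libraries. The genotypes did not overlap, but Mut replicate 3 lay close to WT replicate 1. The fold change of -0.31 ± 0.09 passed narrowly (adjusted p = 0.047). The call was lost without Mut replicate 1 or 2 or any 1 of the WT libraries (adjusted p from 0.065 to 0.13), and with RLE size factors (0.0503) or library totals (0.059). Within the libraries with airway RNA the fold change was -0.34 and not called (adjusted p = 0.31), and Mut replicates 1 and 2 against WT replicate 2 alone differed by -0.31. Of the 50-base windows of its transcript, 32.1% also occur in the pseudogene Mylf-ps, which had 0 counts.

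Mylpf (chromosome 7, 127208890 to 127214298), the fast skeletal regulatory chain, was near the limit of detection. It had 1.58, 1.63, 1.75 and 3.21 CPM in the Mut libraries, from 30 to 67 counts, and 2.61, 1.30, 1.38 and 1.17 CPM in the WT libraries, from 21 to 48 counts. In each genotype a single library, Mut replicate 4 and WT replicate 1, stood above the rest. The fold change was 0.34 ± 0.30 (adjusted p = 0.53), and 0.04 without Mut replicate 4. The 3 genes whose profile over the 8 libraries was closest, among 10060 with a mean of at least 10 CPM, were Mmrn1, Ahr and Krt18, with a root mean square difference of 0.27 to 0.28 on the log2 scale, where Mylpf itself varied by 0.47 (SD). No other member varied by 2-fold between libraries, so likeness was not sought for the rest.

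Whether skeletal muscle was in the samples was read from its defining genes. Myod1 had 0 counts in every library, and Myog, Myf5, Pax7, Mymk and the fast heavy chains Myh2 and Myh4 had at most 6. Other genes of the list had more. The heavy chain Myh8 had 352 to 536 counts in Mut and 463 to 539 in WT libraries. Myh3, another heavy chain, had 14 to 25 in Mut and 19 to 36 in WT libraries, and the troponin Tnnt3 had 64 to 104 in Mut and 72 to 91 in WT libraries. Of 26 genes listed for skeletal muscle, 16 were tested and 6 fell (7.49% of all tested genes did), with a median of -0.29. They included the calcium-binding Casq1 (-1.05 ± 0.10, adjusted p = 0.00032), the creatine kinase Ckm (-0.23 ± 0.05) and the myosin-binding Mybpc1 (-0.82 ± 0.18, adjusted p = 0.0068). Klhl41 fell too (-0.24 ± 0.06), as did the heavy chain Myh8 and the actinin Actn3. The call of Myh8 was lost on leaving out any library but Mut replicate 2 or 4. That of Actn3 was lost on leaving out any but Mut replicate 4 or WT replicate 3, and with DESeq2 (adjusted p = 0.089) and limma-voom (0.055). Among the genes not called were the troponins Tnnt3 (0.04 ± 0.18, adjusted p = 0.94) and Tnni2 (-0.16 ± 0.18, adjusted p = 0.65) and nebulin, Neb (-0.05 ± 0.12, adjusted p = 0.88). The summed level of the list was 2084 to 2310 CPM in Mut and 2512 to 2802 CPM in WT libraries. Most of it came from Ckm (mean 2009 CPM in Mut, 2363 in WT), so it says little of the other genes. Bulk counts do not show which cells made Ckm. The part of skeletal muscle in the level of Myl1 was not tested. Per length, the log2 ratio of Mylpf to Myl1 was -5.50 ± 0.66 in Mut and -6.17 ± 0.57 in WT (SD, n = 4 each; exact permutation test, two-sided p = 0.14).

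Mylk3 (chromosome 8, 85324303 to 85386345), the cardiac light-chain kinase, had 394, 463, 390.2 and 373 CPM in the Mut libraries and 419, 463, 407 and 432 CPM in the WT libraries. The highest Mut library equalled the highest WT library, and the other 3 Mut libraries lay below the WT range. The fold change was -0.09 ± 0.07 (adjusted p = 0.44). Without Mut replicate 2, the high one, it was -0.16 and passed (adjusted p = 0.047), and it passed at -0.14 within the libraries with airway RNA (adjusted p = 0.049). Relative to its substrate, the log2 ratio of Mylk3 to Myl2 was -5.64 ± 0.16 in Mut and -5.57 ± 0.07 in WT (SD, n = 4 each; exact permutation test, two-sided p = 0.46).

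Other enzymes that set light-chain phosphorylation were mostly not called. Of 11 tested genes of light-chain kinases and their activators, 1 fell, where 7.49% of all tested genes were called lower. It was Mylk4, a light-chain kinase of striated muscle, at 10.2 ± 2.34 CPM in Mut and 15.6 ± 1.42 CPM in WT hearts (-0.60 ± 0.15, adjusted p = 0.022). Its call was lost without Mut replicate 3 or WT replicate 1 or 2 (adjusted p from 0.069 to 0.077). The smooth muscle kinase Mylk was at -0.07 ± 0.22 (adjusted p = 0.89). Mylk2, the skeletal muscle kinase, had 5 to 10 counts in Mut and 8 to 17 in WT libraries and was not tested.

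Among 9 genes of the light-chain phosphatase and its inhibitors, 3 fell and 1 rose, with a median of -0.07. Over all tested genes, 7.49% were called lower and 5.75% higher. The cardiac targeting subunit Ppp1r12b fell to 291 ± 8.15 CPM in Mut hearts, against 332 ± 10.2 CPM in WT hearts (-0.19 ± 0.04, adjusted p = 0.0034). The inhibitor Ppp1r14c rose (0.18 ± 0.04, adjusted p = 0.012), a call lost without WT replicate 1 (adjusted p = 0.052). The targeting subunit Ppp1r12c and the catalytic subunit Ppp1cb fell by 0.14 on the log2 scale, but both calls were lost with library totals. That of Ppp1r12c was also lost with DESeq2 (adjusted p = 0.0501) and limma-voom (0.052), and that of Ppp1cb with RLE size factors (0.052) and the fit that was not robust. On leaving out 1 library, the call of Ppp1r12c was kept only without WT replicate 3 or 4, and that of Ppp1cb only without Mut replicate 1 or WT replicate 4. The widely expressed targeting subunit Ppp1r12a was at 0.00 ± 0.04.

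The partners of the light chains on the thick filament gave the setting for these values. Of 10 tested heavy chains 3 fell (7.49% of all tested genes did), with a median of -0.28. They were Myh7b (-0.27 ± 0.05, adjusted p = 0.0028), the non-muscle Myh9 (-0.17 ± 0.04, adjusted p = 0.012) and Myh8 (-0.34 ± 0.10, adjusted p = 0.033). The call of Myh9 was lost with library totals and within the libraries with airway RNA. The cardiac heavy chains Myh6 (-0.37 ± 0.12, adjusted p = 0.096) and Myh7 (-0.16 ± 0.06, adjusted p = 0.076) were not called. Both calls depended on the method: Myh6 passed with limma-voom (adjusted p = 0.032), with the fit that was not robust (0.037) and without Mut replicate 3 (0.00015), and Myh7 passed with DESeq2 (0.024), with no filter (0.031), with the replicate block (0.015), with the airway score (0.0091), within the libraries with airway RNA and without WT replicate 3 (0.034). Of 11 other thick filament genes 4 fell (again beside 7.49% of all tested genes), with a median of -0.15. These were the myosin-binding Mybpc3 (-0.18 ± 0.04, adjusted p = 0.013), Mybpc1, and the M-band proteins Myom1 (-0.15 ± 0.04) and Myom2 (-0.43 ± 0.10). The call of Mybpc3 was lost within the libraries with airway RNA, that of Myom1 without Mut replicate 2 or 4 or WT replicate 1 or 4, and those of Myom2 and Myh8 without any library but Mut replicate 2 and, for Myom2, WT replicate 3 or, for Myh8, Mut replicate 4. Titin, Ttn, was at 0.00 ± 0.04.

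Of 13 tested regulators known to act on cardiac or smooth muscle light-chain genes, 1 rose and 1 fell, with a median of -0.01. Over all tested genes, 5.75% were called higher and 7.49% lower. Srf, serum response factor, was at -0.09 ± 0.04 (adjusted p = 0.19), its coactivator Mrtfa at -0.06 ± 0.05 (adjusted p = 0.52), and Mef2c at -0.04 ± 0.04 (adjusted p = 0.67). The coactivator Mrtfb rose (0.17 ± 0.05, adjusted p = 0.042), a call lost with limma-voom and without any library but Mut replicate 4 or WT replicate 4, and Nfatc1 fell (-0.20 ± 0.06, adjusted p = 0.027), a call lost with library totals and without Mut replicate 1 or 4 or WT replicate 1, 2 or 3.

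Levels of different genes were compared as CPM per kilobase of the principal transcript. On that scale the order in Mut hearts was Myl2 (5438 ± 123), Myl3 (2335 ± 60.2), Myl7 (1647 ± 230.3), Myl4 (1161 ± 142), Myl9 (589 ± 39.4), Myl6 (464 ± 10.1), Myl1 (116 ± 14.6), Mylk3 (109.5 ± 10.8) and Mylpf (2.67 ± 1.02). In WT hearts the order was the same, with Myl2 at 5543 ± 461, Myl3 at 2707 ± 174, Myl7 at 1757 ± 28.3, Myl4 at 1249 ± 12.0, Myl9 at 771 ± 30.5, Myl6 at 526 ± 21.4, Myl1 at 144 ± 6.42, Mylk3 at 117 ± 6.5 and Mylpf at 2.11 ± 0.87 (SD, n = 4 each). In Mut hearts Myl1 and Mylk3, with libraries from 95.9 to 129.8 and from 101 to 125, were not apart, and in WT hearts no neighbours in this order overlapped. With the gene lengths of the deposited files, which add up the exons of all transcripts, Myl4 was at 220.1 ± 26.9 in Mut and 237 ± 2.28 in WT hearts, below Myl6, and Myl7 overlapped Myl2 in both genotypes. Myl7 then lay above Myl3 (1071 ± 27.6 in Mut, 1241 ± 79.7 in WT), and Mylk3 (94.5 ± 9.31 in Mut, 101 ± 5.61 in WT) lay above Myl1 (44.9 ± 5.66 in Mut, 55.7 ± 2.48 in WT) without overlap. The order thus depends on the length used for Myl4, Myl7, Myl3, Mylk3 and Myl1.

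**Figure D4:**
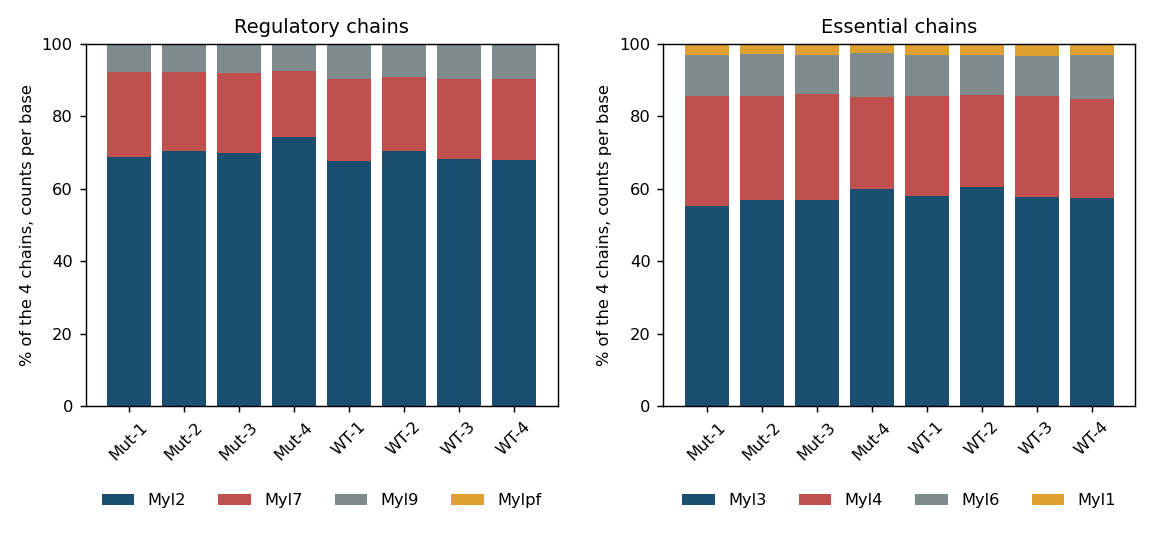
Share of each chain in the summed counts per base of principal transcript, for the 4 regulatory chains (left) and the 4 essential chains (right), 1 bar per library with Mut left of WT. The Myl9 share is lower in each Mut bar than in any WT bar, and the share of Myl7 is lowest in Mut replicate 4; Mylpf is too scarce to be seen.

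Within the regulatory chains Myl2 made up 70.9 ± 2.44% in Mut and 68.6 ± 1.30% in WT hearts, Myl7 made up 21.4 ± 2.32% in Mut and 21.8 ± 1.06% in WT hearts, and Myl9 made up 7.67 ± 0.21% in Mut and 9.56 ± 0.24% in WT hearts (SD, n = 4 each). The Myl9 share was 7.67, 7.63, 7.94 and 7.44% in the Mut libraries and 9.75, 9.22, 9.54 and 9.73% in the WT libraries, without overlap and with no scaling between libraries. The shares depend on the length used: with the deposited lengths, Myl2 made up 45.5% in Mut and 42.8% in WT hearts, Myl7 40.4% in Mut and 40.1% in WT hearts, and Myl9 14.1% in Mut and 17.1% in WT hearts, the last again without overlap. Within the essential chains the shares overlapped for Myl3 (57.4 ± 1.91% in Mut, 58.5 ± 1.40% in WT), Myl4 (28.4 ± 2.20% in Mut, 27.0 ± 1.09% in WT) and Myl6 (11.4 ± 0.63% in Mut, 11.4 ± 0.46% in WT). Myl1 made up 2.84 ± 0.23% in Mut and 3.11 ± 0.13% in WT hearts, with Mut replicate 3 inside the WT range. With the deposited lengths, Myl4 made up 12.2% in Mut and 11.5% in WT hearts, and Myl6 25.8% in Mut and 25.6% in WT hearts.

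**Figure D5:**
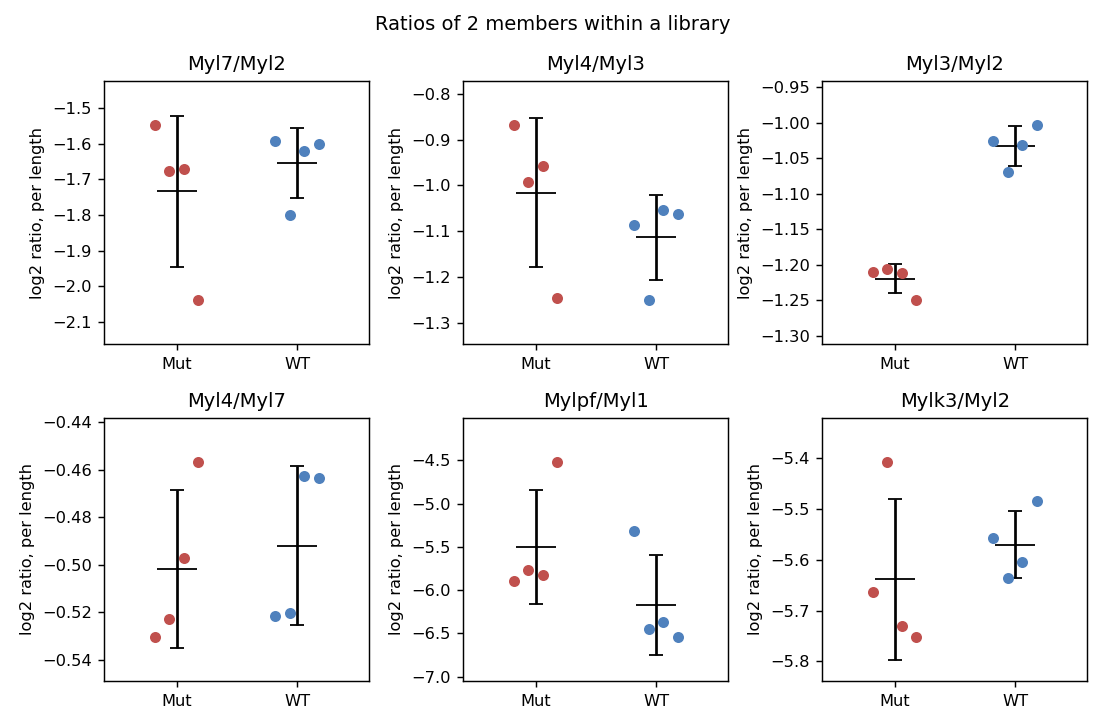
Log2 ratio of 2 members within each library, per base of principal transcript; points are libraries, the long bar is the mean and the whiskers are 1 SD (n = 4 per genotype). The genotypes lie apart for Myl3/Myl2, at -1.25 to -1.21 in Mut and -1.07 to -1.003 in WT, and overlap for the other 5 ratios.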

How the data were processed

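Whole hearts at E18.5 were compared, 4 Mut libraries (CHD4 M195I/M195I) against 4 WT libraries. Per the labels' protocols, Trizol RNA went into TruSeq libraries (Illumina). The submitters' processing notes name Trimmomatic 0.36, STAR 2.5.2b, Subread 1.5.2 with its program featureCounts, and the build GRCm38. Not given in the sources used here: strand setting, annotation release and the treatment of reads with several positions. The authors deposited raw counts for each gene beside its summed exon length; 0 values differed between the library files and the series table the authors deposited. Symbols came from GENCODE M21 (48970 of 49315 genes), and coordinates are those of the files.

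The members and lists were chosen with earlier results of these data known. Genes were kept by filterByExpr (minimum count 10), which left 16372, scaled by TMM (factors from 1.01 to 1.03 in Mut and from 0.963 to 0.993 in WT), and tested with the robust quasi-likelihood test (edgeR 4.0.16, R 4.3.3) on genotype alone. Adjusted p-values are Benjamini-Hochberg over all tested genes, called under 0.05. Alternatives used DESeq2 1.42.0, limma-voom (limma 3.58.1), other scalings, filters and covariates, and subsets of libraries. The length of the principal transcript of GENCODE M21 (APPRIS) was chosen as a length scale after seeing the data. Ratios within a library were compared by a two-sided exact permutation test over 70 splits, adjusted over 6 ratios; the differences do not depend on the length used. Shared sequence was counted in windows of 50 bases against all M21 transcripts. Beyond the members, up to 3 called genes per list and direction were named by adjusted p, with Chd4, Myh6, Myh7 and the defining markers of other tissues; further genes, such as Tnnc1, Tpm1, Acta2, Klhl41, Actn3, Myom2, Irx4, Pln and those named as not called, were chosen after their values were seen. Pairs of libraries within a genotype differed by 2.88 to 9.29 in chi-square per degree of freedom, so none was a repeat. A count of 0 allows up to 3 counts, for counting error only. Values of some genes in the list of kinases and activators are not reported here.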

Additional observations from a re-analysis of the deposited data

Results flagged for a closer look

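Within a genotype, the highest or lowest of 4 libraries stood far from the other 3 for 8 of the 30 groups of values examined. For a single group, chance alone gives about 1 in 20. The ratios reuse the counts of the members, so the groups are not independent and the number flagged cannot show an excess over chance. Mylpf was at 3.21 CPM in Mut replicate 4, against 1.58 to 1.75 in the other Mut libraries, and at 2.61 CPM in WT replicate 1, against 1.17 to 1.38 in the other WT libraries. The Mylpf to Myl1 log2 ratio was accordingly -4.51 in Mut replicate 4 and -5.31 in WT replicate 1. Myl2 was at 4124 CPM in WT replicate 2, against 3468 to 3548 in the other WT libraries, and Myl3 at 2780 CPM in the same library, against 2449 to 2458. The Myl7 to Myl2 log2 ratio was lowest there within WT, at -1.80. The Myl3 to Myl2 log2 ratio of Mut replicate 4 was -1.25, against -1.21 in the other Mut libraries. WT replicate 2 was the 1 WT library without airway RNA, and Mut replicate 4 had the most airway RNA. With an airway score as a covariate, the fold change was -0.03 for Myl2, -0.22 for Myl3 and 0.39 for Mylpf.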

How the results depend on the processing

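Over the 20 alternatives, leaving aside the fit with WT replicate 2 as the lone WT library, the call of Myl9 held in all. With library totals in place of TMM, which moved the median fold change by 0.05, 1856 genes were called higher and 858 lower, against 942 and 1226, and Myl2 was at 0.0262. With Xist as a covariate, 138 genes were called higher, 183 lower and 1 member lower, and Myl4 was at 0.0744, Myl7 at 0.0887 and Mylpf at -0.70. Within the libraries with airway RNA, 609 genes were called higher, Myl2 was at 0.0508, and the log2 ratios differed by -0.25 for Myl7/Myl2, -0.0341 for Myl4/Myl3, 0.00571 for Myl4/Myl7 and -0.19 for Mylk3/Myl2. Between Mut replicates 1 and 2 and WT replicate 2, the libraries without it, with the lone WT library taken to vary like the Mut ones, 595 genes were called higher and 812 lower, and the ratios differed by 0.19 for Myl7/Myl2, 0.32 for Myl4/Myl3, -0.14 for Myl3/Myl2 and 0.10 for Mylk3/Myl2. With 1 library left out, 579 to 850 genes were called higher, 899 to 1137 lower and 3 to 4 members lower. Myl2 then lay between -0.0537 and 0.0334, Myl7 between -0.15 and 0.00335, and the Myl7/Myl2 ratio between -0.14 and 0.0218. The fits with libraries left out hold fewer samples; the cause of the other changes was not tested.

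The correlation of same-numbered deviations was -0.52, 0.77, 0.56 and 0.10 for replicates 1 to 4, and the own number was the best match for replicates 2 and 3 only. Both libraries of replicate 2 were without airway RNA and both of replicates 3 and 4 had it. The check therefore cannot decide whether the replicate numbers mark pairs. With the replicate block, 1023 genes were called higher, 1432 lower and 4 members lower. For the ratios, swaps within pairs cannot give a p below 0.125.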
